A study of Mus musculus with 2 samples.

Results

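The 32 genes described here are immediate early genes, of 17492 genes in the deposited count matrix. They were taken as a list of symbols, all of which were found in the matrix, and their counts were read for each cell type label and each group. Transcripts had been counted in single cells of corneal epithelium, all from male mice of the C57BL/6J strain at 20 weeks of age. The diabetic library came from mice given 1 injection of streptozotocin, a beta cell toxin, at 160 mg/kg, whose blood glucose stayed above 250 mg/dL over a study of 12 weeks. The control library came from mice given the vehicle, citrate buffer at pH 4.5. Each library was a pool of 4 corneas from 2 mice, whose epithelium was lifted enzymatically and dissociated with 0.25% trypsin. The authors' cell table gives each cell 1 of 8 labels: LSC, Basal, TAC1, TAC2, Wing, Squam, Conj or Immune.

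Immediate early genes are transcribed within minutes of a signal from a growth factor, a cytokine or mechanical or chemical stress, without the need for new protein. Their promoters are held ready by serum response factor with its ternary complex partners and by CREB, which kinases of the ERK, JNK and p38 cascades switch on. Many encode transcription factors, others encode proteins that destroy the message or switch the kinases off again, and AU-rich elements in the 3′ untranslated region keep the transcripts short-lived. They are also known to be induced by the dissociation of a tissue into single cells. With 1 pool per group, the handling of a pool and its diabetic state cannot be told apart.

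In the diabetic library 171030636 UMIs fell on 8203 cells (median 17677 per cell), and in the control library 196359192 UMIs on 9605 cells (median 16487). A UMI, or unique molecular identifier, marks 1 captured transcript. Cells per label were between 331 and 2382 in the diabetic and between 202 and 2902 in the control library, apart from the Immune label with 10 and 26. Median depth was close in Basal (14438 diabetic and 13146 control), Wing and Squam cells, and apart in TAC2 cells (24500 diabetic and 16629 control). Markers of TAC2, Squam, Conj and Immune cells were highest in their own label in both libraries. Basal cells were not set apart by their markers: Col17a1 was highest in TAC1 and Krt14 in LSC cells in both libraries, so that Basal is used here as the name of a label. The same holds for TAC1, whose replication markers Rrm2 and Tyms were highest in TAC2 cells. Across the libraries 18 cell barcodes were shared.

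Levels are in CPM, the UMIs of a gene per 1000000 UMIs of the cells summed. Since no group has a second library, there is no test and no p-value, and the 95% intervals of CPM and ratios cover counting error only. Those of shares of cells treat the cells of 1 pool as independent draws. Neither kind covers variation between pools. A gene was called measured in a sum of cells with 50 or more counts over both libraries, and higher or lower where the ratio of diabetic to control CPM reached 1.5 either way and the Poisson intervals were apart. In a sum over all cells, fewer cells of a type and less RNA per cell cannot be told apart.

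Over all cells, 6 members were higher in the diabetic library and 0 lower, of 29 measured. Over all measured genes 5.98% were higher and 2.8% lower. The median log2 ratio of the members was 0.15, beside 0.07 for all genes. Egr2 (10 diabetic and 7 control counts), Egr3 (3 and 4) and Fosl1 (20 and 14) were too rare to measure. Values by label differed from this sum. In TAC1 cells 13 of 29 measured members were higher and 0 lower, where 1.7% of measured genes were higher and 1.52% lower, and the median log2 ratio was 0.51 beside 0.01 for all genes. In Basal cells 10 of 29 were higher and 0 lower (2.63% and 2.38% of genes; median 0.35 beside 0.01), and in TAC2 cells 10 of 28 were higher and 0 lower (2.21% and 1.35%; median 0.19 beside 0.04). Nr4a1, Atf3 and Socs3 in these 3 labels, and Klf2 in TAC1 and TAC2 cells, had fewer than 50 control counts. They were measured there only because of their diabetic counts. With 200 summed counts, 9 of 22 members were higher in TAC1 cells (110 of 8978 genes). In Basal cells these were 7 of 24 (180 of 9680 genes) and in TAC2 cells 6 of 21 (147 of 8598 genes). Fewer members were called in the outer labels. In Wing cells 3 of 26 were higher and 0 lower (3.93% and 2.59%; median 0.28 beside 0.04), and in Squam cells 1 of 26 was higher and 3 lower (1.79% and 7.75%; median 0.04 beside -0.08). In LSC cells 2 of 21 were higher and 1 lower (2.63% and 2.61%), and in Conj cells 3 of 26 were higher and 2 lower (2.52% and 1.95%). In the 7 epithelial labels 42 of 185 measured pairs of member and label were higher and 6 lower. 18 members were higher in at least 1 label, 10 in at least 3, and 14 were called in none. The matching counts over labels were not taken for all genes, so these only describe the members.

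**Figure D1:**
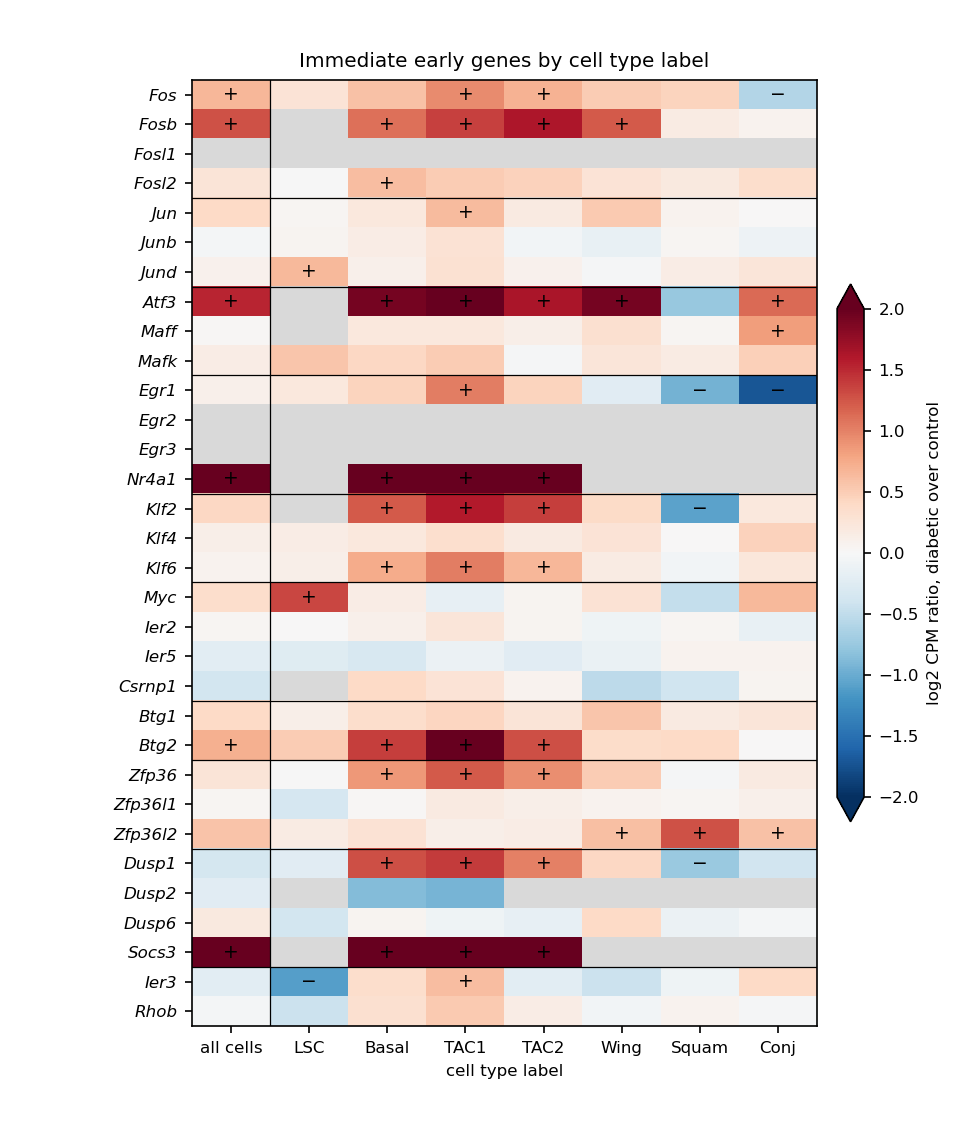
Log2 ratio of diabetic to control CPM for each of the 32 members (rows) in all cells and in each of the 7 epithelial labels (columns), with colours clipped at 2 either way, + and - for members called higher or lower, and grey for members not measured. The + signs gather in the Basal, TAC1 and TAC2 columns, with 10, 13 and 10 of them, against 1 in Squam.

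**Figure D2:**
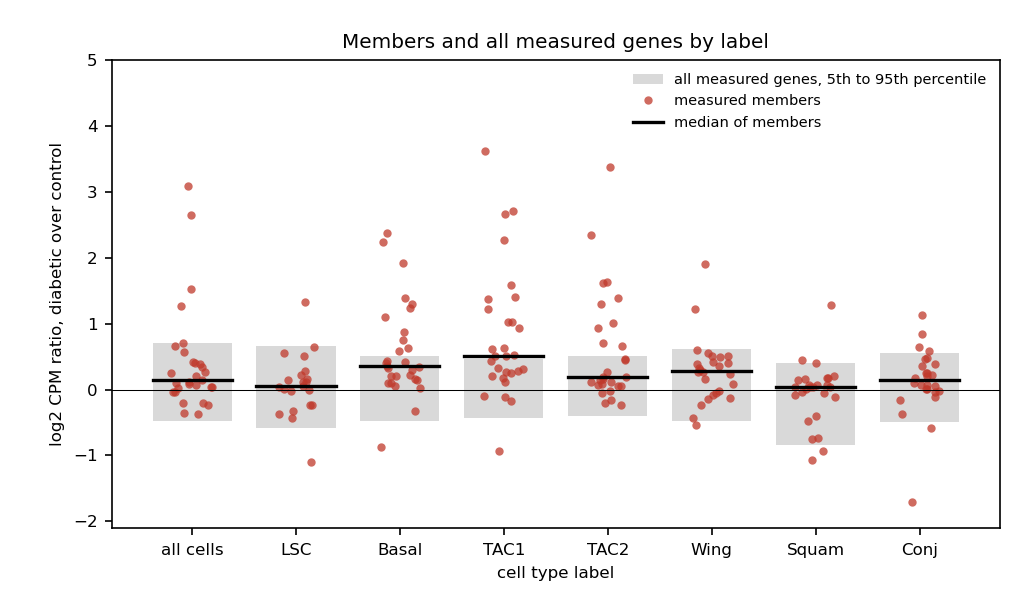
Log2 ratio of diabetic to control CPM of every measured member (points) in each label, with the members' median (bar) and the span between the 5th and 95th percentile of all measured genes (shaded). The members' median lies at 0.51 in TAC1 and 0.35 in Basal cells and at 0.04 in Squam cells.

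The FOS family supplies the partners that let JUN proteins form a strong AP-1 dimer. Fos (chromosome 12, 85473890 to 85477273 on GRCm38, plus strand) was at 404 CPM in diabetic and 211 CPM in control TAC1 cells, a ratio of 1.92 (1.85 to 1.99). In TAC2 cells it was at 319 CPM diabetic and 196 CPM control, a ratio of 1.62 (1.55 to 1.70). In Basal cells, at 378 CPM diabetic and 253 CPM control, the ratio of 1.495 fell just short of the rule. The excess was smaller in Wing (197 CPM diabetic against 139 control, ratio 1.42) and Squam cells (140 against 102, 1.36). It was also smaller in LSC cells, with a log2 ratio of 0.28 and no call. In Conj cells the direction was the other one, with 28.2 CPM diabetic and 42.4 CPM control, 1.502-fold lower in the diabetic library (1.30 to 1.74), a call that was lost after thinning every cell to 5000 UMIs (ratio 0.804). Over all cells Fos was at 244 CPM diabetic and 155 CPM control, a ratio of 1.58, which fell below the rule with equal weight for every cell (1.47) and after thinning (1.494). Fosb, a close paralog, was higher in 4 labels. It was at 84.8 CPM in diabetic and 32.7 CPM in control TAC1 cells (ratio 2.59, 2.37 to 2.84). It was at 75.8 and 35.4 CPM in Basal (2.14), 65.4 and 21.3 CPM in TAC2 (3.06) and 19.4 and 8.32 CPM in Wing cells (2.33), diabetic before control. In Squam cells, at 14.8 CPM diabetic and 13.2 CPM control, its interval of 0.990 to 1.28 included equality. Over all cells Fosb was at 41.2 CPM diabetic and 17.1 CPM control (2.41, 2.31 to 2.51). Fosl2, which lacks the strong activation domain of FOS, was called in Basal cells (123 CPM diabetic, 79.6 CPM control, ratio 1.54), and over all cells stood at 130 CPM diabetic and 109 CPM control.

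The JUN family varied less. Jun, the main partner of FOS, was called in TAC1 cells, at 399 CPM diabetic and 257 CPM control (ratio 1.55, 1.498 to 1.61), and fell just below the rule with equal weight for every cell (1.496). Over all cells it was at 272 CPM diabetic and 206 CPM control, and in Squam cells at 168 CPM diabetic and 160 CPM control. Junb, a weaker activator that can oppose JUN, was at 418 CPM diabetic and 427 CPM control over all cells, and its ratio lay between 0.904 and 1.22 over the epithelial labels. Jund, often present in resting cells, was at 381 CPM diabetic and 359 CPM control over all cells. It was called in LSC cells, at 335 CPM diabetic and 213 CPM control (ratio 1.57, 1.42 to 1.75), and fell just below the rule with equal cell weights (1.492). Jun, Junb and Jund overlap genes on the opposite strand (Junos, Prdx2 and Gm11175), as does Atf3 (Gm24748), and the strand setting of the counting is not given in the sources used here.

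Atf3, a stress-induced bZIP factor of the CREB family, was the member called higher in the most labels, 5 of 7. In TAC1 cells it was at 3.81 CPM diabetic and 0.581 CPM control, a ratio of 6.56 (3.55 to 13.2). In Basal cells it was at 3.82 CPM diabetic and 1.01 CPM control (3.77), in TAC2 at 2.66 and 0.854 CPM (3.11), in Wing at 1.72 and 0.457 CPM (3.76) and in Conj at 5.74 and 2.61 CPM (2.20). In Squam cells, at 0.850 CPM diabetic and 1.44 CPM control, Atf3 was not called. Over all cells it was at 2.77 CPM diabetic and 0.963 CPM control (2.87, 2.42 to 3.42). After thinning, too few Atf3 counts were left to call it in any single label, and its ratio in Basal cells was 1.72. Without likely doublets the TAC2 call of Atf3 was lost for the same reason (3.31). The small MAF factors, which bind DNA but carry no activation domain, were near equality over all cells: Maff was at 14.3 CPM diabetic and 14.1 CPM control, and Mafk at 15.3 CPM diabetic and 13.8 CPM control. Maff was called in Conj cells, at 16.8 CPM diabetic and 9.36 CPM control (ratio 1.79, 1.40 to 2.30; 1.58 and not called after thinning).

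Among the zinc finger factors and nuclear receptors, Nr4a1 had the highest ratio of any member. Nr4a1 (chromosome 15, 101254269 to 101274795 on GRCm38, plus strand) encodes NUR77, an orphan nuclear receptor. It had 132 counts in diabetic and 11 in control TAC1 cells, or 6.54 and 0.533 CPM, a ratio of 12.3 (6.64 to 25.2). In TAC2 cells it had 57 diabetic and 4 control counts, or 3.22 and 0.311 CPM (10.4, 3.84 to 39.4), and in Basal cells it was at 3.43 CPM diabetic and 0.664 CPM control (5.17). Wing cells held 29 diabetic and 6 control counts and Squam cells 6 and 2, too few to call. Over all cells Nr4a1 had 348 diabetic and 47 control counts, or 2.03 and 0.239 CPM (ratio 8.50, 6.26 to 11.8). After thinning its ratio was 12.6 in TAC1 and 2.72 in Basal cells, with too few counts to call it in either, and it was also not called in TAC2 cells without likely doublets (7.55). Egr1, a zinc finger factor that activates growth and wound genes, was called in both directions. It was at 76.9 CPM in diabetic and 37.8 CPM in control TAC1 cells (ratio 2.03, 1.87 to 2.22) and at 75.8 CPM diabetic and 55.9 CPM control in Basal cells (1.36). In Squam cells it was at 17.2 CPM diabetic and 33.0 CPM control, 1.92-fold lower in the diabetic library (1.73 to 2.13), and in Conj cells at 10.2 CPM diabetic and 33.5 CPM control, 3.28-fold lower (2.65 to 4.08). Over all cells Egr1 was at 49.5 CPM diabetic and 46.2 CPM control.

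**Figure D3:**
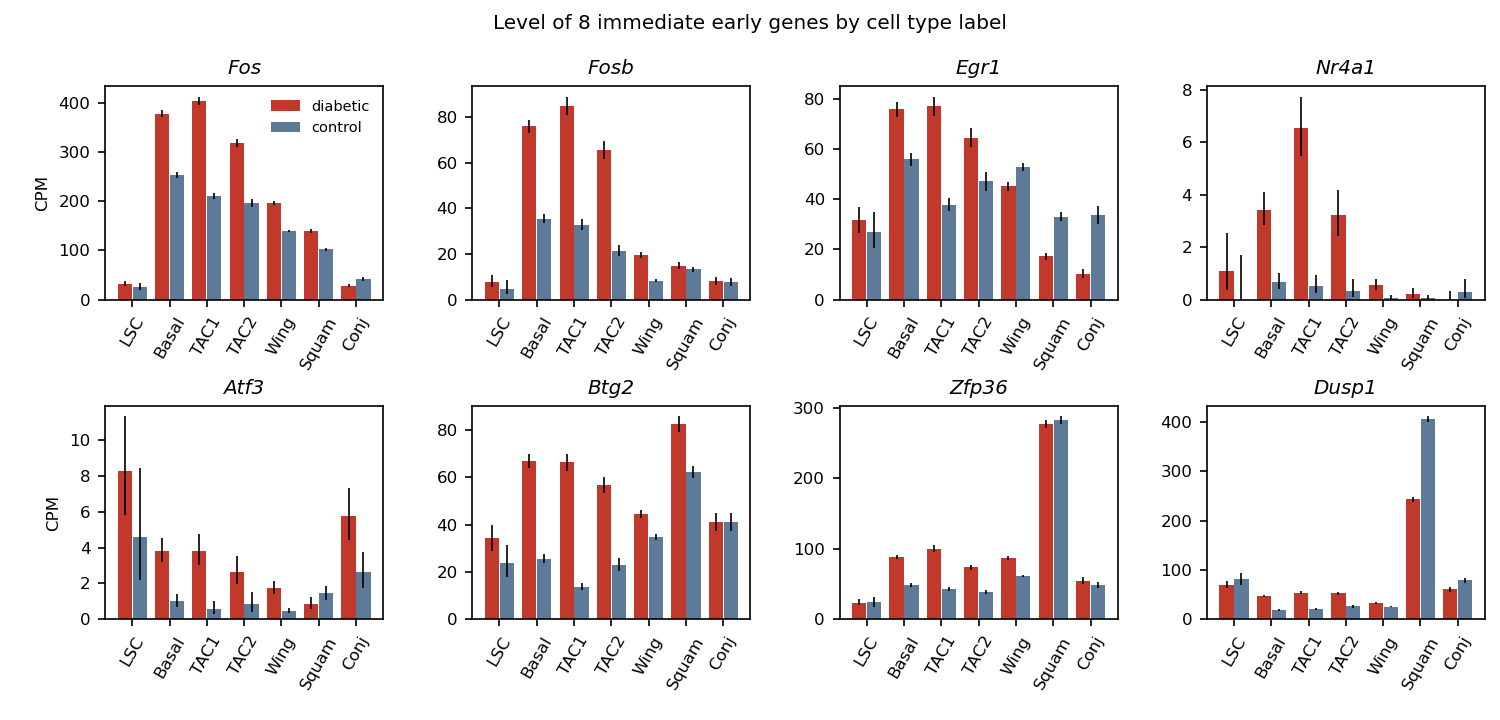
CPM of 8 members in each epithelial label, diabetic bars left of control bars, with exact 95% Poisson intervals that cover counting error only. All 8 are among the 13 members called higher in TAC1 cells, so their diabetic bars stand above the control bars there by choice of genes. For Egr1 and Dusp1 in Squam cells the diabetic bars stand below.

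Of the 3 KLF factors, 2 were called. Klf2, a zinc finger factor known for quiescence in endothelium and T cells, was at 7.58 CPM diabetic and 3.23 CPM control in Basal cells (ratio 2.35, 1.86 to 2.98). It was at 5.79 CPM diabetic and 1.94 CPM control in TAC1 (2.99) and at 5.49 CPM diabetic and 2.10 CPM control in TAC2 cells (2.62). In Squam cells it was at 2.75 CPM diabetic and 5.74 CPM control, 2.09-fold lower in the diabetic library (1.62 to 2.72). Over all cells Klf2 was at 5.73 CPM diabetic and 4.29 CPM control. After thinning Klf2 had too few counts to be called in these labels other than Basal, with ratios of 2.20 in TAC1 and 6.47 in TAC2 cells. Klf6, a broadly expressed relative, was at 45.0 CPM diabetic and 26.9 CPM control in Basal (1.68), 35.6 and 17.5 CPM in TAC1 (2.04) and 55.1 and 34.7 CPM in TAC2 cells (1.59). In Squam cells, where it was highest, Klf6 stood at 162 CPM diabetic and 168 CPM control, and over all cells at 87.3 CPM diabetic and 82.8 CPM control. Klf4, which is required for corneal epithelial differentiation in the mouse, was called in no label, with 814 CPM diabetic and 748 CPM control over all cells and ratios of 1.003 to 1.38 over the epithelial labels.

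The other nuclear members were mostly level. Myc, a growth regulator, was called in LSC cells, at 35.8 CPM diabetic and 14.2 CPM control (ratio 2.52, 1.71 to 3.83), beside 9.89 CPM diabetic and 7.77 CPM control over all cells. Ier2, a nuclear growth response protein, was at 180 CPM diabetic and 175 CPM control, and Ier5, which modulates heat shock factor, at 114 CPM diabetic and 132 CPM control. Csrnp1, a nuclear protein whose gene entry overlaps that of Cx3cr1 on the same strand, was at 6.91 CPM diabetic and 8.91 CPM control. None of these 3 was called in an epithelial label.

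Of the 5 members that act on messages after transcription, Btg2 and Zfp36 were called in Basal, TAC1 and TAC2 cells. Btg2, an antiproliferative adaptor that brings the CCR4-NOT deadenylase to transcripts, was at 66.2 CPM in diabetic and 13.8 CPM in control TAC1 cells, a ratio of 4.82 (4.23 to 5.49). In Basal cells Btg2 was at 66.8 CPM diabetic and 25.6 CPM control (2.61) and in TAC2 cells at 56.6 CPM diabetic and 23.1 CPM control (2.46). Over all cells Btg2 was at 59.3 CPM diabetic and 36.4 CPM control (1.63). In Squam (82.5 and 62.3 CPM, ratio 1.32) and Conj cells (41.0 and 40.9 CPM) it was not called. Its paralog Btg1 was at 58.6 CPM diabetic and 44.6 CPM control over all cells and was called in no label. The ZFP36 family binds AU-rich elements and recruits the same deadenylase. Zfp36 was at 100 CPM diabetic and 43.0 CPM control in TAC1 cells (ratio 2.33, 2.15 to 2.52), 88 and 48.2 CPM in Basal (1.82) and 73.4 and 38.6 CPM in TAC2 cells (1.90), against 277 CPM diabetic and 283 CPM control in Squam cells and 118 CPM diabetic and 98.7 CPM control over all cells. Zfp36l2 was called in other labels: 81.0 CPM diabetic and 33.3 CPM control in Squam cells (2.43, 2.27 to 2.60) and 61.5 and 40.6 CPM in Wing cells (1.52), but 169 and 157 CPM in TAC1 cells (1.08). In Conj cells, at 22.0 CPM diabetic and 14.7 CPM control, Zfp36l2 just reached the rule. The Wing call was lost under median-of-ratios scaling (1.47), with equal cell weights (1.45) and after thinning (1.40). The Conj call of Zfp36l2 was lost under median-of-ratios scaling (1.48), without likely doublets (1.31) and after thinning (1.496). Over all cells Zfp36l2 was at 112 CPM diabetic and 75.2 CPM control (1.48). Zfp36 and Zfp36l2 each overlap an antisense gene, so their counts are uncertain to that extent. Zfp36l1 was at 228 CPM diabetic and 223 CPM control over all cells. No member of the CCR4-NOT complex itself was called over all cells, of 11 measured (median log2 ratio 0.14), where 5.98% of all genes were higher and 2.8% lower.

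Of the 4 feedback inhibitors of signalling, 2 were called. Dusp1, a nuclear phosphatase that inactivates p38, JNK and ERK, was at 53.3 CPM in diabetic and 20.2 CPM in control TAC1 cells (ratio 2.63, 2.35 to 2.96). It was at 46.9 CPM diabetic and 19.1 CPM control in Basal (2.45) and 52.6 CPM diabetic and 26.2 CPM control in TAC2 cells (2.01). In Squam cells it was at 243 CPM diabetic and 405 CPM control, 1.67-fold lower in the diabetic library (1.62 to 1.72), and over all cells at 80.7 CPM diabetic and 103 CPM control. Dusp1 shares its locus with Ergic1 on the opposite strand, so its counts are uncertain to that extent. Socs3, an inhibitor of cytokine receptor signalling through JAK and STAT, was at 7.67 CPM diabetic and 1.21 CPM control in TAC1 cells (6.34, 4.14 to 10.1). In TAC1 cells thinning gave 9.29, with too few Socs3 counts for a call. Socs3 was at 4.65 CPM diabetic and 0.981 CPM control in Basal (4.74) and 3.56 CPM diabetic and 0.699 CPM control in TAC2 cells (5.10), and at 2.58 CPM diabetic and 0.413 CPM control over all cells (6.25, 4.92 to 8.02). Without likely doublets Socs3 had too few counts for a call in TAC2 cells (3.60). Dusp6, the cytoplasmic ERK phosphatase, was at 19.5 CPM diabetic and 17 CPM control and was called in no label. Dusp2, a nuclear phosphatase, had 95 diabetic and 128 control counts over all cells, or 0.555 and 0.652 CPM. In Basal cells it was at 0.829 CPM diabetic and 1.52 CPM control (ratio 0.546) and in TAC1 cells at 0.842 CPM diabetic and 1.598 CPM control (0.527), in both with overlapping intervals and so not called. Ier3, a stress-inducible survival protein, was at 54.4 CPM diabetic and 35.6 CPM control in TAC1 cells (1.53) but 39.7 CPM diabetic and 85.4 CPM control in LSC cells, 2.15-fold lower in the diabetic library (1.74 to 2.65). Over all cells Ier3 was at 212 CPM diabetic and 245 CPM control. Rhob, a small GTPase of the actin cytoskeleton, was at 135 CPM diabetic and 138 CPM control and was called in no label.

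Sequence was examined for what the members share. In the 250 bases before the start of transcription, a full CREB element (CRE, TGACGTCA, its own reverse complement) was found in 3 of the 26 members with a promoter in the RefSeq table (11.5%: Btg2, Dusp1 and Maff) and in 1.77% of 27025 genes. A CArG box, the serum response factor element, was found in 2 members (Egr2 and Zfp36) and in 1.62% of genes. The AP-1 element TGANTCA, searched on both strands, was found in 2 members (Csrnp1 and Zfp36l1) and in 7.82% of genes, and the EGR element GCGTGGGCG in 1 (Maff) and in 0.622% of genes. The promoters of 3 members that were higher in Basal, TAC1 and TAC2 cells and hold an element are printed, with that of Nr4a1, which had the highest ratio and no match. They are from RefSeq on GRCm38.p6, at chr1:134079156-134079405 (Btg2, minus strand), chr17:26508473-26508722 (Dusp1, minus), chr7:28379229-28379478 (Zfp36, minus) and chr15:101266596-101266845 (Nr4a1, plus). Capitals mark the CRE at -166 to -159 in Btg2, the CRE at -143 to -136 in Dusp1 and the CArG box at -58 to -49 in Zfp36, counted from the start of transcription.
Btg2: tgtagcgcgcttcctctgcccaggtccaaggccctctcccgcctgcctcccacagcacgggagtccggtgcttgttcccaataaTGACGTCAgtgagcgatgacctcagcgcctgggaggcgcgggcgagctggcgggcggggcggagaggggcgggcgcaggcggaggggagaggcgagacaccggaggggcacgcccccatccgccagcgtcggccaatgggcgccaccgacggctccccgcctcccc
Dusp1: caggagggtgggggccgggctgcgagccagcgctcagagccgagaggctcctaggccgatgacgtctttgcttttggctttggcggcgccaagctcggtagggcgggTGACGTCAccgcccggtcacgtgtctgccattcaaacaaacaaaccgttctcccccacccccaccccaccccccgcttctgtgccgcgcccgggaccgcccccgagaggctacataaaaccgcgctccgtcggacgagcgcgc
Zfp36: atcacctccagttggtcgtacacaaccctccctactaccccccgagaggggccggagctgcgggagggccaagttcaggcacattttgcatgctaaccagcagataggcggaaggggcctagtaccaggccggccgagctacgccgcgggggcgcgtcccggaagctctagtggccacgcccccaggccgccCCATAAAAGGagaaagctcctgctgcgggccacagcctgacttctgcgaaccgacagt
Nr4a1: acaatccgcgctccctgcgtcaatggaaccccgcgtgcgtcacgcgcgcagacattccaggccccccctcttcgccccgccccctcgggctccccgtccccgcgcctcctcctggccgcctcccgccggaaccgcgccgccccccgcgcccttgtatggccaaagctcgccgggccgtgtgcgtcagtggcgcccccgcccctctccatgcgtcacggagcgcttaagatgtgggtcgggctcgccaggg

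A match is a description of these letters, not a site shown to be bound. The median member spanned 5073 bases with 2 exons, against 23712 bases and 9 exons for the 12413 measured coding genes (GENCODE M21, GRCm38). The gene entries of Dusp1 (56539 bases) and Atf3 (47744 bases) were longer than that median. Both entries reach upstream of the RefSeq start used for the promoters, so a transcript from that start spans less than the entry. The 3′ untranslated regions of members held a median of 2.64 ATTTA pentamers per kb, against 1.29 for all measured coding genes, and the nonamer TTATTTATT, bound by the ZFP36 family, was present in 8 of 32 members (25%) and in 7.97% of the coding genes. It was present in 30% of the 10 members higher in at least 3 labels and in 22.7% of the other 22 members. Sites of 4 members are printed, 2 of them in the ZFP36 family itself, with the nonamer in capitals. They lie at chr12:85477103-85477132 (Fos, plus strand), chr17:26506158-26506187 (Dusp1, minus), chr7:28376950-28376979 (Zfp36, minus) and chr17:84184913-84184942 (Zfp36l2, minus).
Fos: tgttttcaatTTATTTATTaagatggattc
Dusp1: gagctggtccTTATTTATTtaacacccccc
Zfp36: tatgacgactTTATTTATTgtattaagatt
Zfp36l2: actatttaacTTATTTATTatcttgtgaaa

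Cell by cell, the excess took different forms. Cells were thinned to 5000 UMIs each so that depth did not set the share of cells with a UMI. In Basal cells the share with a Fos UMI was 43.0% diabetic (40.9 to 45.0) and 42.3% control (40.3 to 44.3), or 55.6% and 55.2% without thinning, while positive cells held a mean of 3.84 UMIs in the diabetic and 2.75 in the control library. Cells with 5 or more Fos UMIs made up 14.5% of diabetic and 7.48% of control Basal cells. In TAC1 cells both differed: the share was 52.3% diabetic (49.1 to 55.4) and 39.2% control (36.4 to 42), or 67.3% and 57.7% without thinning, and positive cells held 3.51 UMIs diabetic and 2.53 UMIs control. For Btg2 the share was 17.6% in diabetic and 5.73% in control TAC1 cells (38.1% and 15.8% without thinning), and for Dusp1 15.7% diabetic and 8.89% control (33.1% and 18.5%). In Squam cells Dusp1 was found in 47.6% of diabetic and 61.3% of control cells (72.2% and 84.0%). Nr4a1 was found in 8.39% of diabetic and 0.714% of control TAC1 cells without thinning and in 2.74% and 0.166% with it. Of the 32 members, a thinned TAC1 cell held a UMI of 7.82 on average in the diabetic and 6.44 in the control library, a Basal cell 8.10 and 7.30, and a Squam cell 9.89 and 9.93.

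**Figure D4:**
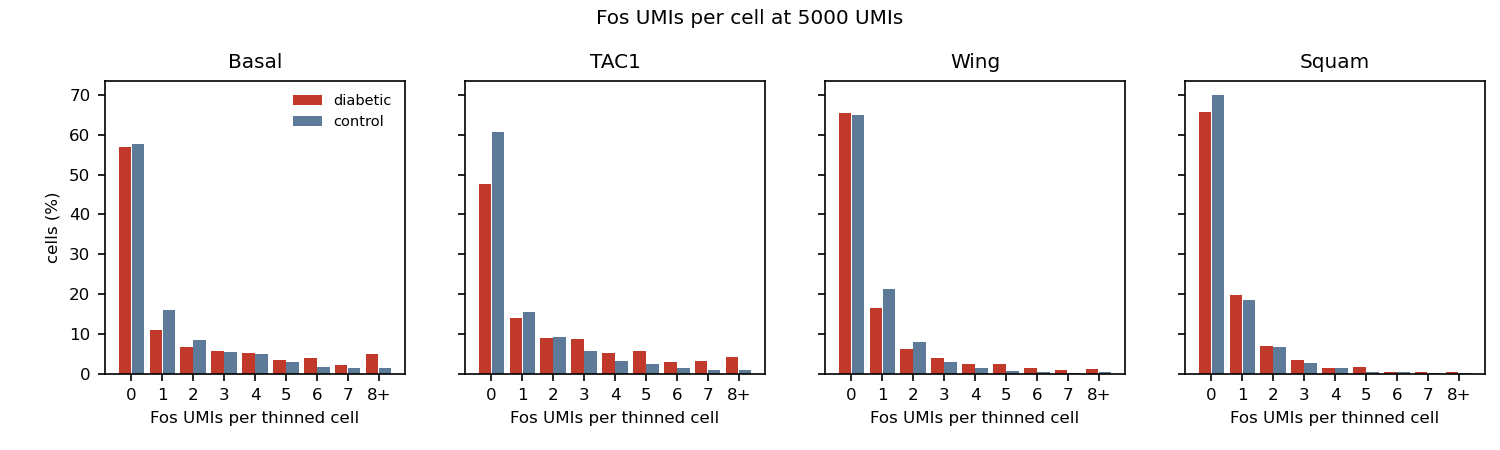
Percent of cells with each number of Fos UMIs after thinning to 5000 UMIs per cell, in Basal, TAC1, Wing and Squam cells, diabetic bars left of control bars. In TAC1 cells 47.7% of diabetic and 60.8% of control cells held 0 Fos UMIs, and 4.06% and 0.997% held 8 or more.

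Within a library, cells with many Fos UMIs also held many UMIs of some other members. In diabetic TAC1 cells (985 thinned cells) the Pearson correlation with Fos was 0.65 for Jun, 0.52 for Fosb, 0.44 for Dusp1 and 0.39 for Btg2. In control TAC1 cells (1204) these were 0.53, 0.33, 0.19 and 0.13. For Jun in Basal cells the correlation was 0.71 over 2318 diabetic and 0.60 over 2365 control cells, and in Squam cells 0.26 over 1308 diabetic and 0.13 over 1541 control cells. Fosl2 and Ier5 stayed near 0 in TAC1 cells, at -0.01 and 0.00 in the diabetic and -0.01 and 0.01 in the control library. The cells of a library share its preparation and the thinned depth, and a gene with more UMIs can reach a higher correlation, so these are descriptions.

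**Figure D5:**
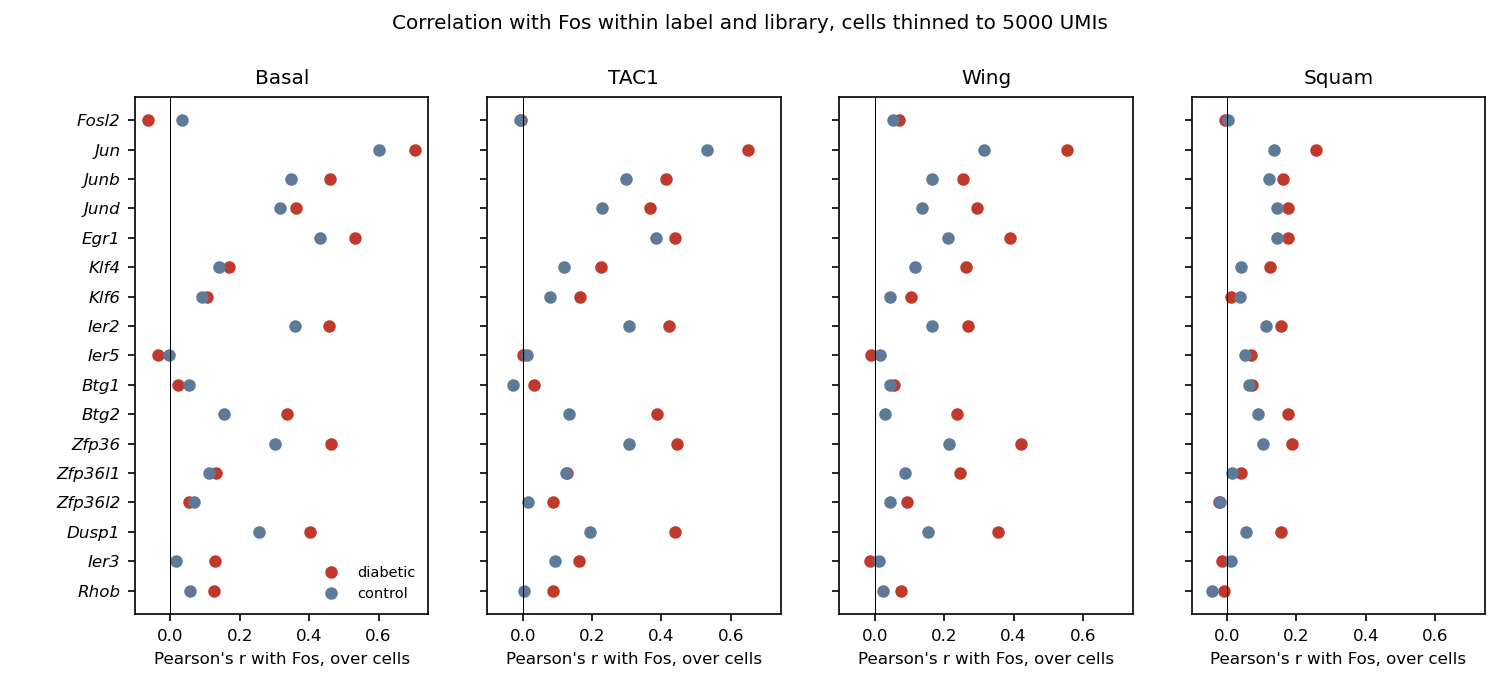
Pearson correlation with Fos over thinned cells (horizontal axis) for 17 members (rows), those with a UMI in at least 5% of the cells of every group plotted, with red points for the diabetic and blue points for the control library in each of 4 labels. Jun has 0.65 in diabetic and 0.53 in control TAC1 cells, and 0.26 and 0.13 in Squam cells.

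The highest label of a member was the same in both libraries for 19 of 29 members. Squam cells held the highest level of 12 measured members in both libraries, among them Junb, Maff, Klf6, Zfp36, Dusp1 and Ier3. TAC1 cells held the highest level of Fos, Fosb, Jun, Egr1, Nr4a1 and Socs3 in the diabetic library, while Fos, Fosb, Jun, Egr1 and Nr4a1 were highest in Basal cells in the control library. The order of Basal and TAC1 cells for Fos was 378 against 404 CPM in the diabetic and 253 against 211 CPM in the control library.

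Other genes of the pathway were mostly level over all cells, where 5.98% of all measured genes were higher and 2.8% lower. Of 16 measured genes of the ERK cascade none was called (median log2 ratio 0.02), of 13 of the JNK and p38 cascade 1 was higher (Map3k5, a stress kinase, 15.9 CPM diabetic and 10.1 CPM control, ratio 1.57), and of 9 measured SRF, ternary complex and CREB factors none was called (0.11). None of 9 measured further AP-1 and small MAF partners was called (0.08). Among 11 measured further ERK feedback inhibitors, Dusp8 was higher, at 0.368 CPM diabetic and 0.153 CPM control, but was measured in no epithelial label. By label, Spry1 was lower in TAC1 (1 of 8, 1.52% of genes) and Spry1 and Dusp5 in TAC2 cells (2 of 8, 1.35%), with none higher. In LSC cells 2 of 7 were higher and 1 lower (2.63% and 2.61%), and in Wing cells 2 of 9 and 1 (3.93% and 2.59%). In Squam cells 1 of 9 was lower (7.75%), and in Basal and Conj cells none of 8 was called. Over all cells 5 of 33 measured other rapid response genes were higher and 1 lower (median 0.07). Among the higher were Klf10, a TGF-beta-inducible factor (14 CPM diabetic, 6.49 CPM control, ratio 2.16), Nfkbia, the NF-kappa-B inhibitor (114 and 63.8 CPM, 1.78), and Gadd45g, a growth arrest gene (7.31 and 4.29 CPM, 1.70). The lower one was Areg, an EGF receptor ligand, at 10.2 CPM diabetic and 16.9 CPM control. In TAC1 cells 7 of 28 measured rapid response genes were higher and 1 lower (1.7% and 1.52% of genes, median 0.20). In Squam cells 6 of 33 were higher and 6 lower (1.79% and 7.75% of genes, median 0.02).

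Several technical measures were set beside these results. Cytosolic heat shock genes, which also respond to stress during handling, were called in 0 of 10 cases in Basal, TAC1 and TAC2 cells. Their median log2 ratios were -0.02 in Basal and 0.03 in TAC1 cells. Of all measured genes there, 2.63%, 1.7% and 2.21% were higher and 2.38%, 1.52% and 1.35% lower, so a count of 0 of 10 is near these shares. In Squam cells 3 of 10 were lower (Hspe1, Hspb1 and Hspa1a), where 7.75% of measured genes were lower. There 9 of 10 had a ratio below 1 (median -0.44, beside -0.08 for all genes). Egr1, Klf2 and Dusp1 were also lower there, and what part of the heat shock shift lies in their values was not tested. The median mitochondrial share was 1.85% in diabetic and 1.77% in control TAC1 cells. Psca, a gene of Squam cells, served as a measure of free RNA. It was at 42.3 CPM in diabetic and 72.2 CPM in control TAC1 cells and in 14.5% and 29.1% of thinned cells (47.0% and 60.6% without thinning), against 40529 CPM diabetic and 28930 CPM control in Squam cells. Were all Psca in TAC1 cells free Squam RNA, the same source would give Dusp1 0.254 CPM in diabetic and 1.01 CPM in control TAC1 cells, against the 53.3 and 20.2 CPM found. For Btg2 it would give 0.0861 CPM diabetic and 0.155 CPM control, and for Zfp36 0.289 CPM diabetic and 0.706 CPM control. Such values were taken only for members highest in Squam cells, so not for Fos, Fosb, Jun, Egr1, Nr4a1, Socs3, Atf3 or Klf2. Free RNA from cells other than Squam, and its part in the members' values, was not tested. The 4 Immune markers summed to 0.198 CPM in diabetic and 0.291 CPM in control TAC1 cells, with Ptprc at 0 counts in both. Some other markers were also higher in the diabetic library in Basal, TAC1 or TAC2 cells, and others were not. The stromal Dcn had 27 diabetic and 3 control counts in Basal, 15 and 0 in TAC1 and 40 and 10 in TAC2 cells. The LSC marker Gpha2 was at 254 CPM diabetic and 115 CPM control in Basal, 268 and 120 CPM in TAC1 and 261 and 115 CPM in TAC2 cells. Gpha2 was also higher in Wing, Squam and Conj cells, and lower in LSC cells. The LSC marker Apoe was lower in Basal (163 CPM diabetic, 210 CPM control) and TAC1 cells (175 and 204 CPM). In TAC2 cells Apoe was higher (418 and 296 CPM). Ifitm3 was near equality in Basal (67.8 and 64.2 CPM) and TAC1 cells (47.7 and 44.6 CPM), and higher in TAC2 cells (102 and 58.1 CPM). The 3 LSC markers summed to 491 CPM in diabetic and 369 CPM in control TAC1 cells. The neutrophil markers summed to 71 diabetic and 12 control counts in TAC2 cells. They went the other way in Basal cells (5 diabetic and 12 control counts) and in TAC1 cells (4 and 7). The part of these in the members' values was not tested. In Immune cells, 10 diabetic and 26 control, 4 of 9 measured members were higher (Btg2, Ier5, Junb and Egr1) and 0 lower, where 10.5% of measured genes were higher and 13.6% lower. Without the Immune cells, an alternative chosen after seeing the data, 6 members were higher and 0 lower over all cells.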

How the data were processed

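The authors deposited raw UMI counts of every gene in every cell, and a table with the group and label of each cell. Per the labels' protocols, libraries were made with the Chromium Next GEM 3′ v3.1 kit. The submitters' processing notes list mm10, Cell Ranger 5.0.0 and Seurat 4. How cells were filtered, how labels were named and whether strand was used is not given in the sources. The lowest cell total was 520 UMIs and the highest mitochondrial share 29.3%.

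Counts were summed per library, over all cells and per label, and expressed as CPM with exact 95% Poisson intervals. Ratios have exact conditional binomial intervals and shares exact Clopper-Pearson intervals. The working of the rule of size was checked on simulated Poisson counts. These hold no variation between pools, so the check cannot show whether a call would recur in other pools. Every member is accounted for: all measured members are given over all cells. Those called over all cells or in 3 or more epithelial labels are also given by label, though not for every label. From each other list, the called members with the largest ratios are named, at most 3 each way. Other calls of members by label were added after their values were seen. The members and lists were chosen with earlier results of these data known. Fos correlations used UMIs of cells thinned to 5000 UMIs, which left out 264 diabetic and 486 control cells.

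Doublets were scored with Scrublet, whose automatic threshold marked 0 cells. The top 8% of scores per library were left out as an alternative only. The other alternatives were median-of-ratios scaling, other count minimums, removal of cells over 10% mitochondrial counts, equal cell weights, thinning, equal label weights and removal of Immune cells. Gene structure came from GENCODE M21 and promoters from RefSeq. The tools were scanpy 1.11.5, scipy 1.17.1, numpy 2.4.6, matplotlib 3.10.9 and pandas 2.3.3 under Python 3.11.15.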

Additional observations from a re-analysis of the deposited data

Results flagged for a closer look

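For 5 members the log2 ratio of diabetic to control CPM was past the rule in opposite directions in different labels. With 1 library per group the difference between labels was not tested, and the matching count over all genes was not taken. Egr1, Klf2 and Dusp1 were lower in Squam cells, where 3 of 26 measured members and 7.75% of all measured genes were lower. Fos had 0.94 in TAC1 and 0.70 in TAC2 cells but -0.59 in Conj cells. Egr1 had 1.02 in TAC1 cells but -0.94 in Squam and -1.71 in Conj cells. Klf2 had 1.23 in Basal, 1.58 in TAC1 and 1.39 in TAC2 cells but -1.06 in Squam cells. Dusp1 had 1.29 in Basal, 1.40 in TAC1 and 1.01 in TAC2 cells but -0.74 in Squam cells. Ier3 had 0.61 in TAC1 cells but -1.10 in LSC cells.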

How the results depend on the processing

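No paired analysis was possible because each group is 1 library. Over all cells the number of higher members was 5 or 6 under every alternative. Thinning gave 1 lower member in place of 0 (Dusp2) and a median log2 ratio of 0.27 in place of 0.15. By label, LSC cells had 1 higher member in place of 2 with 200 summed counts or equal cell weights, and 2 lower in place of 1 after thinning. TAC1 cells had 9 higher of 22 measured, in place of 13 of 29, with 200 summed counts and also after thinning. Basal cells had 7 of 24 with 200 summed counts and 8 of 27 after thinning, in place of 10 of 29. TAC2 cells had 6 higher in place of 10 with 200 summed counts or after thinning, and 7 without likely doublets. Wing cells had 5 higher in place of 3 with 10 summed counts. Conj cells had 1 lower in place of 2 with equal cell weights or after thinning, and 1 higher in place of 3 after thinning. Of the 48 called pairs of member and label, 48 kept their call with cells of high mitochondrial share left out, 46 under median-of-ratios scaling, 44 without likely doublets, 43 with equal cell weights, 34 with 200 summed counts and 31 after thinning. None changed to the opposite call. With 200 summed counts, Atf3, Nr4a1 and Socs3 lost their calls in Basal, TAC1 and TAC2 cells, since their sums lie below that minimum. Depth thus limits the statements on these rare transcripts most, and 1 pool per group limits all of them.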
